A study of Mus musculus with 6 samples.

Results

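The genes of MHC class II antigen presentation were followed in bone-marrow-derived macrophages (BMDMs) kept in control medium or in excess salt. The set was given as a list of 10 gene symbols, all of which were found in the deposited tables and had enough counts to be tested, among 15903 genes tested in all. It holds the class II chains H2-Aa, H2-Ab1 and H2-Eb1, the invariant chain Cd74, the transactivator Ciita, the peptide exchange factors H2-DMa and H2-DMb1, and the T cell costimulatory molecules Cd86, Cd80 and Cd40.

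BMDMs were grown with 10 ng/ml M-CSF from bone marrow of 3 Cx3cr1GFP mice, which carry GFP at the Cx3cr1 locus on the C57BL/6J background. Cells of each mouse gave a control library (labelled unstim) and a library after 24 h with 62 mM added NaCl, so that there are 3 control and 3 NaCl libraries and mouse numbers 1, 2 and 3 occur in both groups. All 6 libraries therefore share the reporter allele, the M-CSF culture and the selection of adherent cells, and neither age nor sex of the mice is given in the sources used here. No library holds cells given an osmotic control or an inflammatory stimulus, and each mouse and treatment is represented by a single library. Polyadenylated RNA was sequenced, and total counts lay between 8520433 and 20123570 in the control group and between 4088065 and 11610020 in the NaCl group, so that 1 count is worth between 0.0504 and 0.240 CPM (read counts relative to the TMM-scaled library size) and the NaCl library of mouse 3 is the least precise. The macrophage markers Adgre1, Csf1r, Cd68, Fcgr1, Itgam and Lyz2 were present in every library, and Lyz2 had the highest level, with 9219 to 10194 CPM in control and 16456 to 23249 CPM in NaCl cells (higher with NaCl, edgeR adjusted p = 0.0424).

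MHC class II molecules are dimers of an alpha and a beta chain that display peptides from endocytosed proteins to CD4+ T cells. The invariant chain encoded by Cd74 escorts the dimers to endosomes and blocks the peptide groove until cathepsins degrade it, after which H2-DM exchanges the remaining fragment for antigenic peptide. Transcription of these genes depends on CIITA, a coactivator that binds no DNA itself but is recruited by RFX, CREB and NF-Y proteins on the X and Y boxes shared by class II promoters. Unstimulated macrophages carry little class II until interferon gamma induces CIITA. CD80 and CD86 deliver the second signal through CD28, and CD40 receives the CD40 ligand signal of activated T cells.

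The X and Y boxes through which CIITA acts were searched in RefSeq promoter windows (build GRCm38.p6), which lie at the annotated gene start for H2-Aa, H2-Eb1 and H2-DMb1. Windows were found for 5 of the 10 genes, and those of H2-DMa and Cd80 start elsewhere in the gene. No window was given for H2-Ab1, Cd74, Ciita, Cd86 and Cd40. The stretches from 120 to 21 bases upstream of the start hold every match found in the windows of H2-Aa, H2-Eb1 and H2-DMb1. They are shown 5′ to 3′ on the strand of the gene. Capitals mark the letters of an X box core (AGNNACNNATG), of a CRE-type site (TGACG) and of the Y box (GATTGG), each searched on both strands.
H2-Aa, chr17:34287844-34287943, minus strand: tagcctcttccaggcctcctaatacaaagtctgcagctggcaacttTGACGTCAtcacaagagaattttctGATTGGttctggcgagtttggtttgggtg
H2-Eb1, chr17:34305747-34305846, plus strand: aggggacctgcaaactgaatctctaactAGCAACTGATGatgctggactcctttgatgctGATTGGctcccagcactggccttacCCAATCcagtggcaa
H2-DMb1, chr17:34153071-34153170, plus strand: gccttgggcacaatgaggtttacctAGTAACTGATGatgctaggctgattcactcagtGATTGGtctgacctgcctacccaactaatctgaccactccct
The X core lay 92 bases upstream of the start in H2-Eb1 and 95 bases upstream in H2-DMb1, and the letters were not in the H2-Aa window. In H2-Aa a pair of overlapping CRE-type matches, 1 on each strand, began 74 and 71 bases upstream. A Y box followed in each stretch, beginning 49 bases upstream in H2-Aa, 60 in H2-Eb1 and 62 in H2-DMb1, and H2-Eb1 held another on the opposite strand at 35. Of 32851 mouse promoter windows, searched whole and longer than the stretches shown, 3.09% held the X core and 20.8% the CRE-type site. The Y box was in 16.1% and both X and Y in 0.484%. These are matches of letters and no binding was measured.

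Per kilobase of exon, the order of levels was Cd74 far above all others, with 79.5 ± 17.3 CPM per kb in control cells (mean ± SD, n = 3). H2-DMb1 followed at 18.7 ± 1.23 CPM per kb, and after it came H2-Ab1 at 10.4 ± 5.13, H2-Eb1 at 10.0 ± 5.16, H2-Aa at 8.39 ± 4.44 and H2-DMa at 6.35 ± 2.702 CPM per kb. H2-Ab1, H2-Eb1 and H2-Aa, as neighbours in this order, differed by less than their spread between libraries, which includes the step between mice, while H2-Ab1 was above H2-DMa in each of the 3 control libraries. Lengths join the exons of all annotated transcripts of a gene, so the order depends on them. With 3798 bases for H2-Aa and 1681 for H2-DMb1, their control means before division were 31.9 and 31.4 CPM. Cd40 reached 3.76 ± 0.716 CPM per kb, Cd80 2.91 ± 0.424 and Cd86 1.53 ± 0.196. Ciita had the lowest level, 0.514 ± 0.587 CPM per kb, with an SD above its mean. With NaCl the order differed in places, Ciita reaching 0.839 ± 1.18 CPM per kb against 0.721 ± 0.518 for Cd86. Reads were counted without strand, and 10.4% of the exonic bases of H2-DMa overlap Brd2 and 3.45% of those of Ciita overlap Dexi, both on the opposite strand, while 15.8% of the 75-base windows of H2-DMb1 also occur in its near copy H2-DMb2.

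The largest differences among the 10 genes were between mice and not between treatments. Ciita (chromosome 16), the master regulator of the class II genes, had 11.4 CPM in the control cells of mouse 1, against 1.63 CPM in mouse 2 and 1.72 CPM in mouse 3. After NaCl it had 21.01 CPM in mouse 1, 1.09 CPM in mouse 2 and 1.92 CPM in mouse 3. Both libraries of mouse 1 thus lay far above the other 4, whose counts of 8 to 34 reads per library leave their own order open. Fitted in a model with mouse and treatment, the level of Ciita in mouse 2 was lower than in mouse 1, with a log2 difference of -3.52 ± 0.309 (SE), and in mouse 3 the difference was -3.03 ± 0.304 (SE). The test of all mouse terms gave an adjusted p of 2.98e-09 (edgeR quasi-likelihood F-test, Benjamini-Hochberg over 15903 genes).

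**Figure D1:**
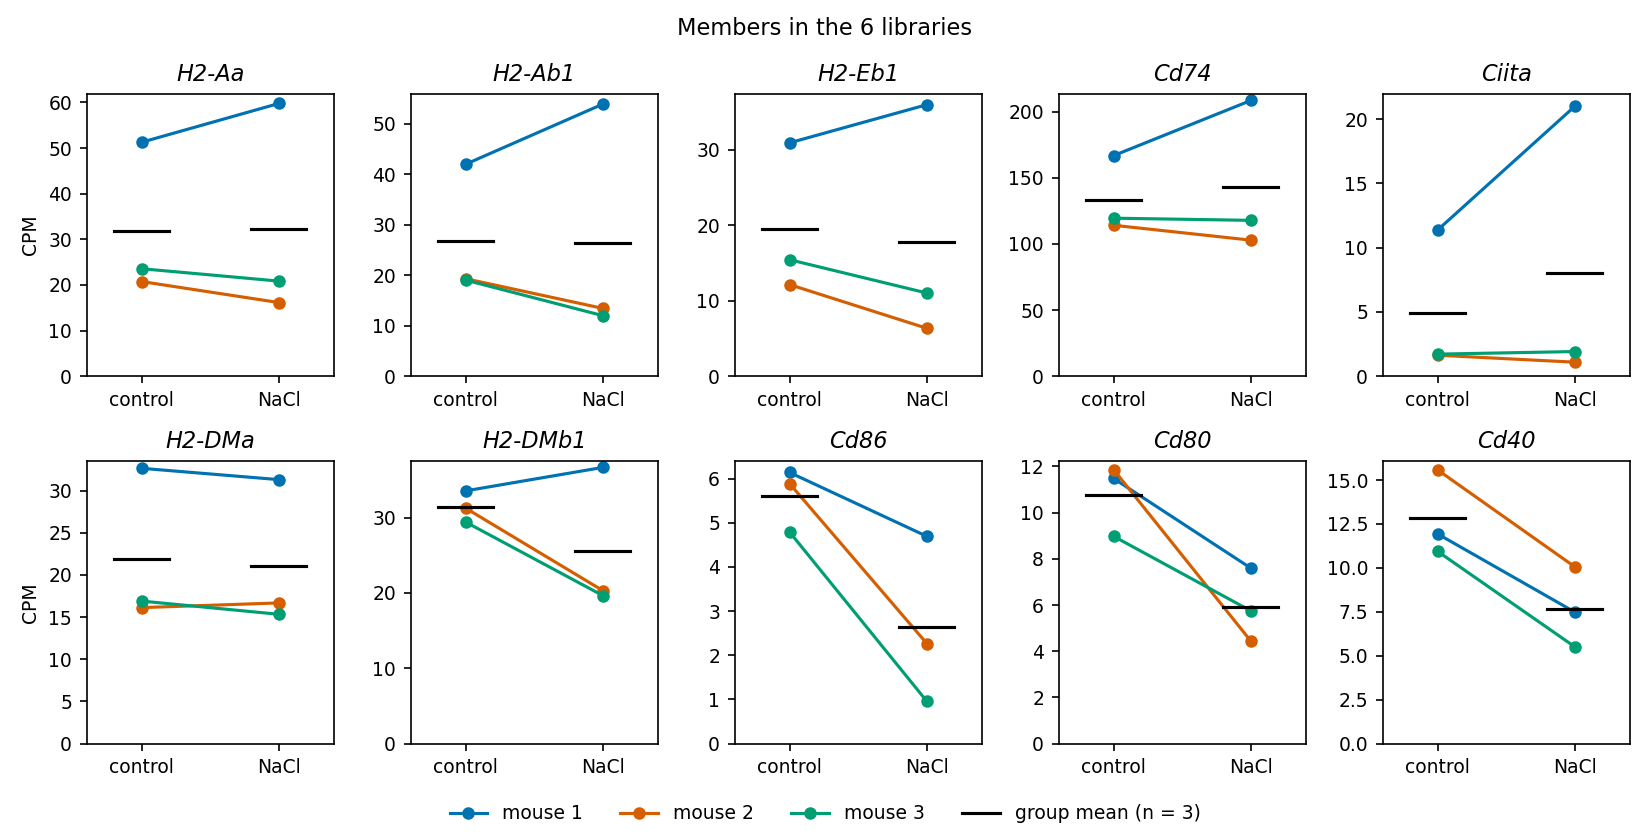
CPM of the 10 genes in the 6 libraries (y axis, from 0, a scale of its own in each panel), with control left and NaCl right, a coloured line joining the libraries of each mouse and black bars at the group means (n = 3). Mouse 1 lies above the other mice in both groups from H2-Aa to H2-DMb1, and Cd86, Cd80 and Cd40 slope down in all 3 mice.

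The class II chains, encoded side by side on chromosome 17, were also highest in mouse 1. H2-Aa, the I-A alpha chain, had 51.3, 20.7 and 23.6 CPM in control cells of mice 1, 2 and 3, and 59.8, 16.1 and 20.8 CPM after NaCl. H2-Ab1, its beta chain partner, had 42.0, 19.3 and 19.0 CPM in control cells and 53.9, 13.4 and 12.0 CPM after NaCl. H2-Eb1, the I-E beta chain, had 30.9, 12.1 and 15.4 CPM in control cells and 36.0, 6.35 and 11.02 CPM after NaCl. In each of these genes mouse 1 was above the others in both groups. Mice 2 and 3 were closer for H2-Aa and H2-Ab1 than for H2-Eb1, whose mouse 3 minus mouse 2 difference was 0.55 on the log2 scale (95% interval 0.08 to 1.03, edgeR adjusted p = 0.623). Relative to mouse 1, the fitted difference of mouse 2 was -1.60 ± 0.170 for H2-Aa, -1.57 ± 0.197 for H2-Ab1 and -1.90 ± 0.217 for H2-Eb1 (log2 ± SE). The adjusted p of the mouse terms was 2.06e-07 for H2-Aa, 8.83e-07 for H2-Ab1 and 1.37e-06 for H2-Eb1 (edgeR).

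Cd74 on chromosome 18 is the most abundant of the genes and differed less between mice. Its levels were 167, 114 and 120 CPM in control cells of mice 1, 2 and 3 and 209, 103 and 118 CPM after NaCl. Mouse 1 was again above the other 4 libraries, by a fitted 0.79 on the log2 scale over mouse 2 (mouse 2 minus mouse 1, -0.79 ± 0.149, SE; edgeR adjusted p of the mouse terms 0.000946). H2-DMa, the alpha chain of the peptide exchange factor, had 32.6, 16.1 and 16.9 CPM in control cells and 31.3, 16.7 and 15.3 CPM after NaCl. Its mouse 2 was lower than mouse 1 by a log2 difference of -0.96 ± 0.171 (SE; edgeR adjusted p of the mouse terms 0.000185). The beta chain gene H2-DMb1 had 33.5, 31.3 and 29.4 CPM in control cells and 36.7, 20.3 and 19.6 CPM after NaCl, so its mice differed little before NaCl, and the mouse terms missed the threshold (edgeR adjusted p = 0.0990).

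In all, 6 of the 10 genes passed the mouse test (Ciita, the 3 class II chains, Cd74 and H2-DMa), where 8.89% of all genes tested were called. Both libraries of mouse 1 lay above the other 4 in 7 of the 10, against 13.8% of all genes. Pairs of mice were compared after the levels had been seen. All 6 genes were lower in mouse 2 and in mouse 3 than in mouse 1, a call that 2.5% of all genes met (4.5% were lower in mouse 2 and 3.75% in mouse 3), and 0 of the 10 genes differed between mice 2 and 3 (edgeR), where 0.044% of all genes were called and where H2-Eb1 and Cd40 had an unadjusted p of 0.0231 and 0.0074. Over all genes the median difference from mouse 1 was -0.003 for mouse 2 and -0.01 for mouse 3 (log2), against -0.87 and -0.91 over the 10 genes. DESeq2's likelihood ratio test also called 6 of the 10 genes, where it called 5.06% of all genes. Leaving out a library in turn gave 5 to 8 of the 10 genes, while the calls over all genes went from 1413 to between 352 and 4586. Cd74 was lost without the NaCl library of mouse 1 (edgeR adjusted p = 0.545), where 352 genes were called in all. H2-DMb1 was gained without the control library of mouse 2, the control library of mouse 3 or the NaCl library of mouse 2. Those fits called 4586, 1803 and 2274 genes in all. Without the control library of mouse 2, Cd86 was gained as well (edgeR adjusted p = 0.0442). Mouse and culture or library batch cannot be told apart here, and in bulk RNA more cells of a kind and more RNA per cell cannot be told apart either.

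Markers of other cells that carry class II were set beside these levels. The dendritic cell list of 9 genes was carried by Itgax, which macrophages also express, and without it the other 8 summed to 6.82 to 8.53 CPM in the libraries of mouse 1 and 4.44 to 7.52 CPM in the other 4. Flt3, Zbtb46, Xcr1, Clec9a and Cd209a had at most 0.796 CPM in any library (Zbtb46 in the control cells of mouse 1). Batf3 reached 4.09 CPM in the control cells of mouse 1, and Ccr7 3.26 CPM in those of mouse 2. None of the 9 passed the test of mouse or NaCl (edgeR), and 0 of the 9 had an unadjusted p under 0.05 for NaCl. For the mouse terms Batf3 had an unadjusted p of 0.0285 (edgeR adjusted p = 0.164), with 3.83 CPM in the NaCl library of mouse 3 against 2.91 CPM in that of mouse 1. The monocyte list of 5 genes summed to 224 and 287 CPM in mouse 1 and to between 94.0 and 126 CPM in the other libraries. Ccr2, the receptor of CCL2, held most of that sum with 211, 83.3 and 98.2 CPM in control cells and 258, 38.7 and 99.2 CPM after NaCl, and its mouse terms gave an adjusted p of 3.51e-07 (edgeR). Ifitm6, the other gene of that list to differ between mice, was the single one to differ with NaCl, where it was higher (2.61 ± 0.211 against 28.3 ± 18.2 CPM, SD, n = 3, edgeR adjusted p = 0.00997). Of 8 B cell markers only Cd79a and Cd79b had enough counts to be tested and Pax5 had none. The B cell sum was 9.66 and 10.4 CPM in mouse 1 and 2.90 to 5.98 CPM in the others, nearly all of it Cd79b. Outside the lists, and chosen after its values were seen, Ighm, the constant region of the IgM heavy chain, had 47.1 and 49.2 CPM in mouse 1 and 8.70 to 11.5 CPM in the other libraries. None of the 5 T and NK cell markers reached the minimum count, and Ifng had no read. The part of monocyte-like or B cell RNA in the class II levels was not tested.

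The profile of the class II chains and Cd74 over the 6 libraries was compared with every gene with at least 50 counts per library on average, by the root mean square (RMS) difference in centred log2 CPM. Among 9920 candidates the closest were Cd33 at an RMS of 0.121, Zfp874b at 0.143, Tcp11l2 at 0.159, Cd79b at 0.165 and Gmfg at 0.186. Cd33, a sialic acid-binding receptor of myeloid cells, had 57.5, 31.9 and 34.3 CPM in control cells of mice 1, 2 and 3 and 66.6, 20.2 and 28.5 CPM after NaCl. H2-DMa came at rank 53 and H2-DMb1 at rank 300. Ciita came at rank 8761, its range over the libraries being 4.05 on the log2 scale against 1.02 to 2.47 for the class II chains and Cd74. The likeness rests on 6 libraries of 3 mice and mostly on the step between mouse 1 and the rest.

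Against control, 24 h of NaCl gave no call for any of the 10 genes without a mouse term, the design the study used (edgeR, 0 higher and 0 lower at an adjusted p under 0.05, 3 lower at an unadjusted p under 0.05, and 0 called by DESeq2). The background was low, with 0.654% of all genes called in either direction (0.176% lower, and 0.975% lower by DESeq2) and 6.01% lower at an unadjusted p under 0.05. The labels tie the libraries to animals, and with the mouse as a block 3 of the 10 genes were lower with NaCl and 0 higher (edgeR), where 4.3% of all genes were called lower and 4.6% higher. These 3 were the costimulatory molecules Cd86, Cd80 and Cd40, which were also the genes whose 3 NaCl libraries all lay below the 3 control libraries, a pattern of 10.1% of all genes, while 0 of the 10 had all NaCl libraries above the controls (8.92% of all genes). The same 3 of the 10 genes were lower with NaCl in 3 of 3 mice, which held for 23.6% of all genes. DESeq2 with the same block called 0 of the 10 genes, where it called 2.23% of all genes lower.

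Cd80 on chromosome 16, a ligand of CD28 and CTLA-4, had 11.5, 11.9 and 8.98 CPM in control cells of mice 1, 2 and 3 and 7.60, 4.44 and 5.75 CPM after NaCl. It was lower with NaCl in 3 of 3 mice and its groups did not overlap, with means of 10.8 ± 1.57 and 5.93 ± 1.59 CPM (SD, n = 3). Its log2 fold change was -0.86 ± 0.244 (SE) with an adjusted p of 0.182, and with the mouse as a block -0.90 ± 0.205 with an adjusted p of 0.00457 (edgeR). DESeq2 gave adjusted p-values of 0.0874 without and 0.0536 with the block.

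Cd86, the other CD28 ligand and also on chromosome 16, was the least abundant of the costimulatory genes. It had 6.14, 5.89 and 4.79 CPM in control cells and 4.69, 2.27 and 0.958 CPM after NaCl. The groups did not overlap, but the highest NaCl library (mouse 1, 4.69 CPM) came close to the lowest control library (mouse 3, 4.79 CPM), and the lowest value rests on 4 reads. The log2 fold change was -0.98 ± 0.399 (SE) with an adjusted p of 0.353, and -1.09 ± 0.279 with the mouse as a block, with an adjusted p of 0.0118 (edgeR). Within mice the log2 ratio was -0.37 in mouse 1, -1.31 in mouse 2 and -2.12 in mouse 3. With a single library per mouse and treatment, whether the mice responded differently cannot be tested. DESeq2 gave adjusted p-values of 0.255 without and 0.0778 with the block.

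Cd40 on chromosome 2, the receptor through which T cells activate antigen-presenting cells, had 11.9, 15.6 and 10.9 CPM in control cells and 7.49, 10.1 and 5.51 CPM after NaCl. All 3 mice were lower with NaCl, by log2 ratios of -0.66, -0.62 and -0.97. The log2 fold change was -0.69 ± 0.244 (SE) with an adjusted p of 0.281, and -0.73 ± 0.179 with the block, with an adjusted p of 0.00844 (edgeR). DESeq2 gave 0.212 without and 0.0762 with the block.

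Each of these calls was lost when the libraries of 1 mouse were left out of the blocked fit. Without mouse 1 the adjusted p of Cd40 was 0.0514, without mouse 2 that of Cd80 was 0.0616, and without mouse 3 those of Cd86 and Cd40 were 0.0546 and 0.0518, while every fold change stayed negative (edgeR). With all libraries thinned to the counts of the smallest, the blocked fit called Cd40 alone (adjusted p = 0.0373, against 0.0558 for Cd80 and 0.114 for Cd86).

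**Figure D2:**
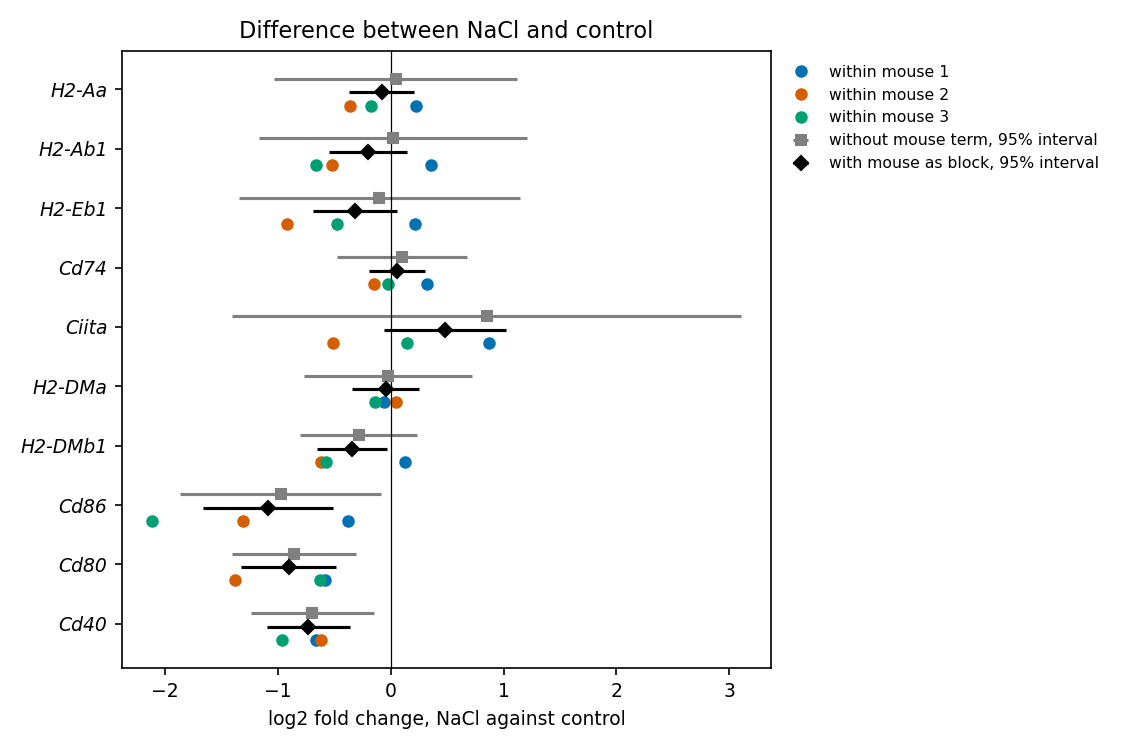
Log2 fold change of NaCl against control (x axis) for each of the 10 genes, as the edgeR estimate without a mouse term (grey squares) and with the mouse as a block (black diamonds), both with 95% intervals, and the log2 ratio within each mouse (coloured circles). The blocked intervals of Cd86, Cd80 and Cd40 lie below 0, as does that of H2-DMb1, which missed the threshold after adjustment, and the mice lie on both sides of 0 for the class II chains, Cd74, Ciita, H2-DMa and H2-DMb1.

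For the class II genes themselves NaCl gave no call in either design. The log2 fold change with the mouse as a block was -0.08 for H2-Aa (95% interval -0.37 to 0.21), -0.20 for H2-Ab1 (-0.54 to 0.14), -0.32 for H2-Eb1 (-0.69 to 0.05) and 0.05 for Cd74 (-0.20 to 0.30). The H2-DMa difference was -0.05 (-0.34 to 0.25), that of H2-DMb1 was -0.34 (-0.65 to -0.03, adjusted p = 0.174, edgeR) and that of Ciita was 0.48 (-0.06 to 1.02). These intervals reach down to -0.69 on the log2 scale for the chains and up to 1.02 for Ciita, so differences within them are not excluded. In the class II chains, Cd74 and H2-DMb1 the mouse 1 ratio was positive (0.13 to 0.36) and the ratios of mice 2 and 3 were negative (-0.92 to -0.02). Ciita gave 0.87, -0.51 and 0.15 in mice 1, 2 and 3 and H2-DMa gave -0.06, 0.05 and -0.14. Without a mouse term the direction turned with the library left out, from -1.05 without the NaCl library of mouse 1 to 0.50 without its control library for H2-Ab1, and from -1.74 to 2.31 for Ciita. In the blocked fit without mouse 2, Ciita passed the threshold as higher with NaCl (log2 fold change 0.77, edgeR adjusted p = 0.0121), and without mouse 1 it stood at -0.22 with an adjusted p of 0.896.

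The median log2 fold change of the 10 genes was -0.06 without and -0.26 with the block, and that of all genes -0.01 and -0.02. With the difference of mouse 1 from the others set against that of NaCl, the genes did not fall into separate groups: Cd86 was displaced along both axes, and H2-DMb1 lay between the other class II genes and the costimulatory genes.

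**Figure D3:**
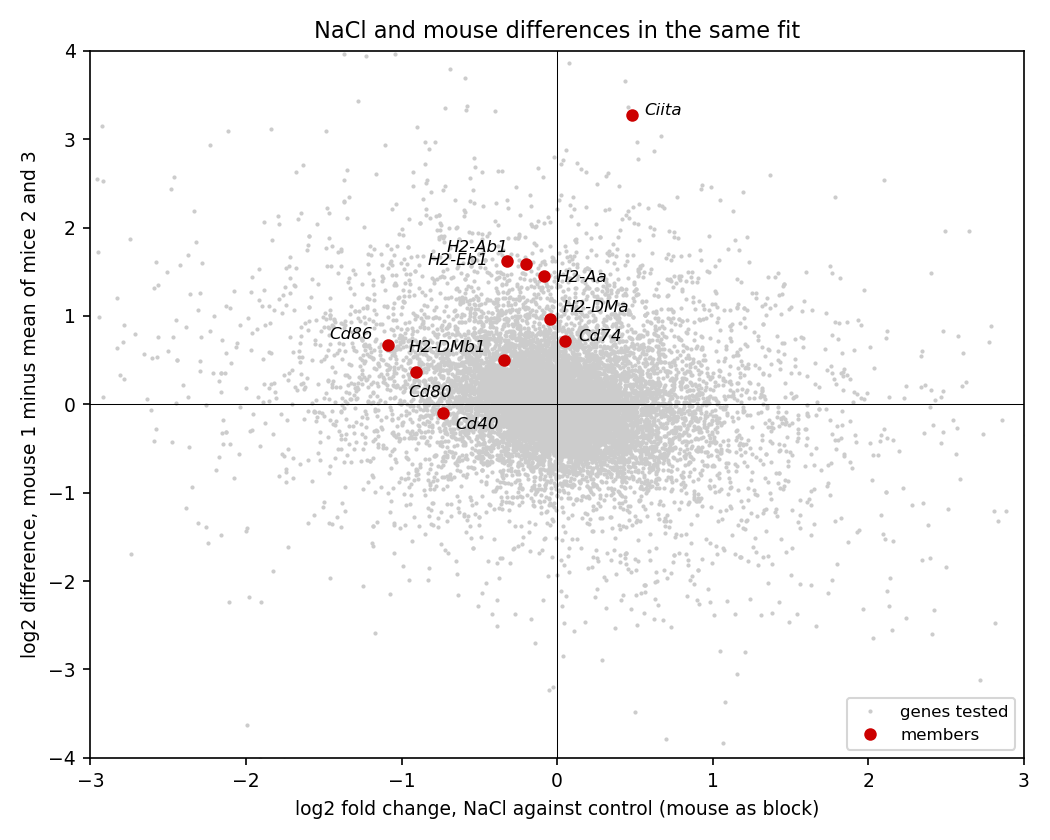
Each grey point is a gene tested, with its log2 fold change for NaCl against control (x axis) and the log2 difference of mouse 1 from the mean of mice 2 and 3 (y axis), both from the fit with mouse and treatment; the 10 genes are red, and 97 genes lie outside the axes. Ciita lies highest and right of 0, the class II chains, H2-DMa and Cd74 lie above 0 on the y axis between -0.32 and 0.05 on the x axis, and Cd80, Cd86 and Cd40 lie farthest to the left.

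Other genes of the pathway were read from 7 lists with 54 genes, of which 50 could be tested. Without a mouse term 0 were higher and 1 was lower with NaCl, with the block 1 was higher and 4 were lower, and 9 differed between mice (edgeR). Of all genes 0.478% were called higher and 0.176% lower without a mouse term. With the block 4.6% of all genes were higher and 4.3% lower, and 8.89% differed between mice. Whether the lists depart from these shares was not tested. The single call without a mouse term was Cd274, which encodes PD-L1, the inhibitory ligand of PD-1 on T cells. It had 34.6, 37.3 and 39.5 CPM in control cells of mice 1, 2 and 3 and 21.3, 21.5 and 20.6 CPM after NaCl. The groups were far apart and the mice close together, with a log2 fold change of -0.81 ± 0.137 (SE) and an adjusted p of 0.0384, or 0.000232 with the block (edgeR). The call without a mouse term was lost without any 1 of the 6 libraries (adjusted p between 0.0509 and 0.304, log2 fold change between -0.85 and -0.75), and the blocked call stood without any 1 mouse, with an adjusted p of 0.00187 at most.

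Among the 10 tested of 11 other costimulatory and inhibitory ligands, Cd83 was lower and Icosl higher with the block. Cd83, a surface marker of activated antigen-presenting cells that hinders the removal of class II and CD86, had 37.6, 23.9 and 18.5 CPM in control cells and 24.1, 15.1 and 11.5 CPM after NaCl. It was lower in 3 of 3 mice (block log2 fold change -0.66 ± 0.145, SE, edgeR adjusted p = 0.00343) and also differed between mice (edgeR adjusted p = 0.000570), mouse 1 being the highest in each group. Icosl, the ICOS ligand, had 18.4, 14.6 and 14.6 CPM in control cells and 26.4, 19.7 and 19.9 CPM after NaCl (block log2 fold change 0.46 ± 0.147, SE, edgeR adjusted p = 0.0465). Cd276 and Vsir differed between mice, Cd276 being lowest and Vsir highest in mouse 1 in each group. The call of Cd83 was lost without mouse 1 (adjusted p = 0.0589) and that of Icosl without mouse 1 (0.273) or mouse 3 (0.0990, edgeR). DESeq2 with the block called Cd83 (adjusted p = 0.0231) and Cd274 (0.000746) and did not call Icosl (0.173).

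Marchf1, a ubiquitin ligase that marks class II and CD86 for removal from the cell surface, was lower with NaCl in 3 of 3 mice, and the other ligase Marchf8 passed no test. Its levels were 85.3, 48.5 and 52.9 CPM in control cells and 63.3, 29.5 and 45.0 CPM after NaCl. The blocked log2 fold change was -0.46 ± 0.127 (SE) with an adjusted p of 0.0193, and the mouse terms had an adjusted p of 0.000336 (edgeR), with mouse 1 highest in each group as for the class II chains. The NaCl call was lost without mouse 1 (adjusted p = 0.151) or mouse 2 (0.0513, edgeR), and in DESeq2 with the block (0.0714).

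Of 11 genes of endosomal proteolysis, Ctsd alone was lower with the block. Ctsd encodes the protease cathepsin D and had 7591, 10233 and 9317 CPM in control cells and 6880, 7669 and 5892 CPM after NaCl (block log2 fold change -0.41 ± 0.127, SE, edgeR adjusted p = 0.0428). That call was lost without mouse 1 (adjusted p = 0.192) or mouse 3 (0.440, edgeR), and DESeq2 with the block kept it (0.0392). Ctss, the cathepsin that trims the invariant chain, had means of 3531 and 4144 CPM in control and NaCl cells and passed no test. Lgmn, an asparaginyl protease of endosomes, was the single gene of the list to differ between mice (edgeR adjusted p = 0.0138).

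The factors that act upstream of the class II genes gave no call for NaCl. Of 12 promoter factors, 0 passed in either direction with or without the block, with blocked log2 fold changes of at most 0.32 (Nfyc). Nfya, a subunit of the Y box factor NF-Y, and Usf1, an E box factor of a CIITA promoter, differed between mice, but Nfya was lower in mouse 1 than in mice 2 and 3 (by 0.50 and 0.51 on the log2 scale, edgeR adjusted p = 0.0332). Usf1 was higher in mouse 1, mouse 2 differing from it by -0.54 and mouse 3 by -0.57 (log2, edgeR adjusted p = 0.0137). Of 5 genes of interferon gamma receptor signalling only the receptor chain Ifngr1 differed between mice, with 226, 147 and 165 CPM in control cells of mice 1, 2 and 3 and 200, 156 and 147 CPM after NaCl (edgeR adjusted p = 0.0348). Of 7 CD40 signalling genes 0 passed for NaCl and Nfkb2 differed between mice, with 58.8 and 53.2 CPM in mouse 1 and 37.9 to 42.3 CPM in the others (edgeR adjusted p = 0.0338).

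**Figure D4:**
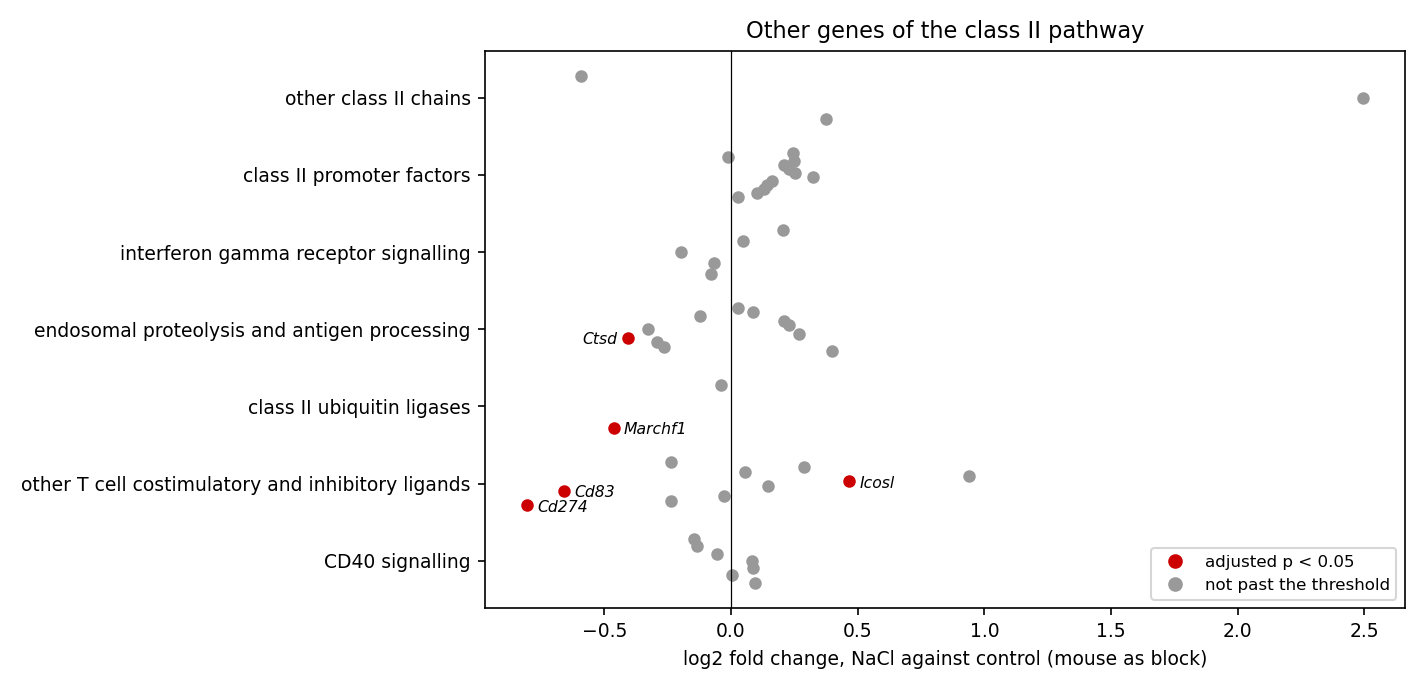
Log2 fold change of NaCl against control in the fit with the mouse as a block (x axis) for the 50 tested genes of 7 pathway lists (rows), with genes past the adjusted p threshold in red and named. The named genes are Ctsd, Marchf1, Cd83 and Cd274 below 0 and Icosl above 0, and the point far to the right is H2-Oa, which has 17 reads in all.

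Of 6 other class II chain symbols, H2-Oa, H2-Ob and H2-DMb2 could be tested, and 0 of the 3 passed for NaCl or mouse. H2-Oa, the alpha chain of the H2-DM inhibitor H2-O, had at most 0.101 CPM in control cells and 1.34, 0.0906 and 0.240 CPM after NaCl in mice 1, 2 and 3. H2-Ob, its partner, had 2.27, 0.634 and 1.21 CPM in control cells and 1.45, 0.635 and 0.479 CPM after NaCl. H2-DMb2 stood at 0.996 to 2.01 CPM in the 6 libraries. The pseudogene H2-Ea-ps had 2 reads in all, as had H2-Eb2. The symbol H2-Ea had no entry among the genes counted, so no level of an I-E alpha chain partner of H2-Eb1 is given under it.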

How the data were processed

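The authors trimmed 75-base single-end reads with fastp 0.20.0, aligned them with STAR 2.7.10b to mm10 and deposited raw gene counts, plus a normalized signal in which each count was scaled by a DESeq2 1.40.2 size factor, for genes with a total of at least 10. The annotation named, GENCODE vM32, was made for a later build than mm10, so genes are placed by chromosome. Only raw counts were tested. Exon lengths and overlaps came from GENCODE M21.

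NaCl was compared with control over 15903 genes with edgeR 4.0.16 (R 4.3.3, quasi-likelihood test, TMM, Benjamini-Hochberg, threshold 0.05) without a mouse term, as in the study's methods, and with the mouse as a block. Deviations from group means correlated at 0.43, 0.15 and 0.22 across genes for same-numbered libraries, which come from the same mouse, and at -0.35 to 0.12 for others. Mice were compared by an F-test of the mouse terms, and pairs of mice, and leaving out libraries from the mouse test, were added after the data were seen. DESeq2 1.42.0, limma-voom 3.58.1, other scalings and filters, thinning and leaving out libraries were alternatives. The genes and lists were chosen with earlier results of these data known. Named genes are the 10 members, list genes past the threshold, and the 5 most like profiles. The log2 CPM used a prior count of 2. The models were tested on simulated data.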

Additional observations from a re-analysis of the deposited data

How the results depend on the processing

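Without a mouse term 76 genes were higher and 28 lower with NaCl (edgeR). The replicate block gave 732 and 684, DESeq2 245 and 155, DESeq2 with a block term 452 and 354, testing every gene with 1 count or more 362 and 300, and thinning with the block 489 and 387; thinning alone gave 50 higher. Leaving out 1 library gave 8 to 123 higher and 0 to 46 lower, and leaving out 1 mouse under the block 469 (without mouse 1), 758 (mouse 2) and 715 (mouse 3) higher and 417, 661 and 585 lower. Members lower with NaCl numbered 0, but 3 with the block, 2 with a minimum total of 1 (Cd86, adjusted p = 0.0491, and Cd80, 0.0254), 1 with thinning and the block, and 1 to 2 without 1 mouse under the block, where 0 to 1 was higher (Ciita). In other alternatives no member was called. The mouse test called 1413 genes, 804 by DESeq2, 870 when thinned and 352 to 4586 without 1 library. The block changed no other call among the members.

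Values near 0 turned sign. With the block H2-Aa was -0.081 and H2-Ab1 -0.20, in DESeq2 with a block -0.082 and -0.23, and in limma-voom -0.045 and -0.15, where H2-DMa was 0.031; H2-Ab1 was -0.0070 in DESeq2. Leaving out 1 library gave -0.79 to 0.56 for H2-Aa, -1.05 to 0.50 for H2-Ab1, -1.22 to 0.38 for H2-Eb1, -0.27 to 0.31 for Cd74, -1.74 to 2.31 for Ciita and -0.43 to 0.37 for H2-DMa. Leaving out 1 mouse under the block gave -0.26 to 0.076 for H2-Aa (-0.035 without mouse 3), -0.58 to 0.021 for H2-Ab1 (-0.028 without mouse 3), -0.075 to 0.17 for Cd74 and -0.22 to 0.77 for Ciita. The mouse 2 difference ranged from -1.21 to 0.037 for Cd86 and -0.75 to 0.036 for Cd80. The cause was not tested. Ciita has no adjusted p in DESeq2, and 4 reads in the shallowest library limit Cd86.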

Other observations

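The mouse difference of the class II genes was part of a wider one. Of 1413 genes that differed between mice (edgeR), 397 were higher in mouse 1 than in both other mice and 406 were lower. The genes named next were chosen after their values were seen. Ms4a4a, a membrane protein gene of the MS4A family, had 30.9 and 14.3 CPM in mouse 1 and 0.635 to 1.92 CPM in the other 4 libraries, and Ms4a6b of the same family had 71.2 and 80.6 CPM against 10.7 to 21.8 CPM. Adgre4, an adhesion receptor of macrophages, had 20.7 and 12.5 CPM in mouse 1 and 0.815 to 2.22 CPM in the others. Gpr34, a receptor for lysophosphatidylserine, had 22.5 CPM in the control library of mouse 1 and 5.81 CPM in its NaCl library, against 4.29 to 6.43 CPM and 0.240 to 0.544 CPM in the other mice. In the opposite direction, Id1, an inhibitor of helix-loop-helix factors, had 4.78 and 11.5 CPM in mouse 1 and 37.7 to 130 CPM in the others, and Smad6, an inhibitor of BMP signalling, had 2.73 and 5.81 CPM against 19.2 to 28.05 CPM. These values are descriptions, and what sets mouse 1 apart was not tested.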
